A study of Mus musculus with 10 samples.

Results

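Arterial blood endothelial cells (BECs) of the mouse ear skin were chosen by the reads of single sorted cells. A well was kept with at least 50000 reads outside the ERCC spike-ins, at least 200 genes and at most 10% mitochondrial reads. It was taken as a BEC when *Flt1*, *Emcn* and *Podxl* together reached 300 CPM (counts scaled to a common library total) and exceeded the lymphatic genes *Prox1*, *Flt4* and *Mmrn1*. A BEC was taken as arterial with at least 50 CPM of *Gja5*, under 50 CPM of *Apln*, under 100 CPM of *Ackr1* and *Selp* together, and under 500 CPM of 7 cell cycle genes (*Mki67*, *Top2a*, *Ccnb1*, *Ccnb2*, *Cdk1*, *Cdc20* and *Prc1*). The rule found 91 arterial BECs among 1490 BECs and 3248 kept wells of 3456. The remaining 1399 BECs, together called other BECs, are the cells they were compared with.

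The wells held cells of 7 mice aged 5 wk, of which 5 were mutants and 2 were controls. Mutant mice carried *Pik3caH1047R;Cdh5-CreERT2* and were Cre+. They had received 4-hydroxytamoxifen (4-OHT), 10 mg/ml in acetone, on the dorsal side of the ears at 3 wk. Control 1 was a C57BL/6J mouse without treatment, whereas control 2 was a Cre- mouse of the mutant strain that received the same 4-OHT. The third control mouse was not analysed here. *Cdh5* drives the recombinase in all endothelial cells, blood and lymphatic, and the transgene, a chicken *PIK3CA* coding for a constantly active p110α kinase, is expressed from *Rosa26* once recombined, so that arterial BECs were only 1 of the targets. The labels give 1 plate of 384 wells per mouse, 2 plates for mutants 3 and 5, and they call the cells LECs, although the sort on Podoplanin and CD31 also held BECs. Plate numbers fall into 2 series: mutants 1–4 lie in the first, and mutant 5 and both controls in the second, so that for the first 4 mutants genotype and plate series cannot be told apart.

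Arteries carry blood away from the heart under high pressure and flow. Their endothelium is set apart early in development by NOTCH signaling, with the ligands DLL4 and JAG1, the receptors NOTCH1 and NOTCH4, and target genes such as *Hey1* and *Efnb2*, and by SOXF transcription factors. Arterial endothelial cells are coupled by connexins 40 and 37, the products of *Gja5* and *Gja4*, and rest on a wall rich in elastic fibers. In the skin they branch into arterioles that feed the capillary bed, and there is no sharp boundary between the last arteriole and the first capillary.

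The 91 cells were spread over all mice, with 18 and 14 in the controls and 8, 7, 13, 9 and 22 in mutants 1–5. Their median depth was 276045 reads and 5469 genes per cell, against 257604 reads and 5512 genes in other BECs. Summed per mouse, the arterial cells gave 1643889–7329160 reads and the other BECs 36534557–92301664, so that a mouse's arterial value rests on few cells. No kept well had counts identical to another. Markers of other cell types were present: 36 of 91 arterial BECs and 629 of 1399 other BECs held at least 300 CPM of the summed markers of mural cells, keratinocytes, fibroblasts, immune cells, Schwann cells or LECs. Red blood cell markers reached 300 CPM in 2 arterial and 18 other BECs and did not enter this count. Mural markers (9 genes) summed to 131–3760 CPM in the arterial cells of a mouse, with the highest value in mutant 1, and to 142–1140 CPM in other BECs. Fibroblast markers (6 genes) reached 2130 CPM in the arterial cells of control 1 and 0–227 CPM in those of the other mice. Keratinocyte markers (7 genes) summed to 3.04–1240 CPM, red blood cell markers (2 genes) to 0–140 CPM, lymphatic markers (4 genes) to 43.4–295 CPM and Schwann cell markers (3 genes) to 0–21.7 CPM. Immune markers (6 genes) stayed at or under 18.7 CPM, and *Ptprc* and *Tyrobp* were at 0. Results without these 36 and 629 cells, below called cells that held markers of another type, are given beside those they change. Mutant 1 kept 4 arterial cells there, under the 5 needed for a sum. The tests of arterial cells in that setting therefore also lack mutant 1. Whether a well held 2 cells is not known.

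Within the limits on *Apln*, *Ackr1*, *Selp* and cell cycle genes lay 638 BECs, of which 404 had no *Gja5* read, 130 had up to 25 CPM and 13 had 25–50 CPM. Above the threshold, 10 cells had 50–100 CPM, and the median of the 91 cells was 691 CPM with a highest value of 3660 CPM. The 2 cells just inside had 55.5 and 58.5 CPM and those just outside 42.6 and 42.0 CPM. A further 25 BECs with at least 50 CPM of *Gja5* were left out, 18 of them for *Apln*, 10 for the venous genes and 5 for the cell cycle genes, some for more than 1. Among the genes that chose the cells, the summed CPM of *Emcn*, the mucin of veins and capillaries, was 396 in arterial BECs, 1122 in other BECs and 795 in the other BECs within the same limits. These values describe the choice and were not tested.

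CPM are those of reads summed per mouse and scaled by the trimmed mean of M values (TMM), adjusted p-values come from edgeR's quasi-likelihood test with mouse as a block, corrected over all genes tested, and a gene is called at an adjusted p under 0.05. Positions are of whole genes in GRCm38. The genes of the rule were left out of all tests. Because *Gja5* was read in the same libraries, the comparison shows which genes went with *Gja5* and is no independent test that the cells are arterial.

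Of the 4 remaining arterial markers, all were higher in arterial than in other BECs. *Clu* encodes clusterin, a secreted chaperone (chromosome 14, 65968483–65981547), and was at 2399 and 2094 CPM in the arterial cells of controls 1 and 2 and at 1791, 1652, 3320.0, 2668 and 2595 CPM in those of mutants 1–5. The other BECs of the same mice had 508 and 396 and 882, 578, 664, 586 and 452 CPM. Every arterial value lay above every value of other BECs (log2 fold change 2.04 ± 0.18, SE, 7 mice, adjusted p = 0.000193). *Igfbp3*, an insulin-like growth factor-binding protein (chromosome 11, 7206086–7213923), was at 1347 and 1461 CPM in control and 998, 2838, 1497, 2392 and 1575 CPM in mutant arterial BECs, and at 332 and 426 and 458, 378, 433, 537 and 658 CPM in other BECs, again without overlap (1.86 ± 0.19, adjusted p = 0.00075). *Gkn3*, a gastrokine known as a marker of arterial endothelium (chromosome 6, 87383256–87388935), was at 325 and 472 CPM in control and 87.9, 168, 152, 79.5 and 134 CPM in mutant arterial BECs. It was at 1.62 and 2.56 CPM in other BECs of controls and at 2.83, 0.0234, 2.90, 0.122 and 0.548 CPM in those of mutants (7.66 ± 0.86, adjusted p = 0.000945). Without the cells that held markers of another type, and so without mutant 1, the difference of *Gkn3* was 7.5 and no longer called, whereas those of *Clu*, *Igfbp3* and *Sox17* were. *Sox17*, a SOXF factor (chromosome 1, 4490931–4497354), was higher in arterial BECs of all 7 mice but not without overlap, since mutant 2 had 269 CPM, below the 527 CPM of other BECs in control 1 (1.5 ± 0.21, adjusted p = 0.00418).

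**Figure D1:**
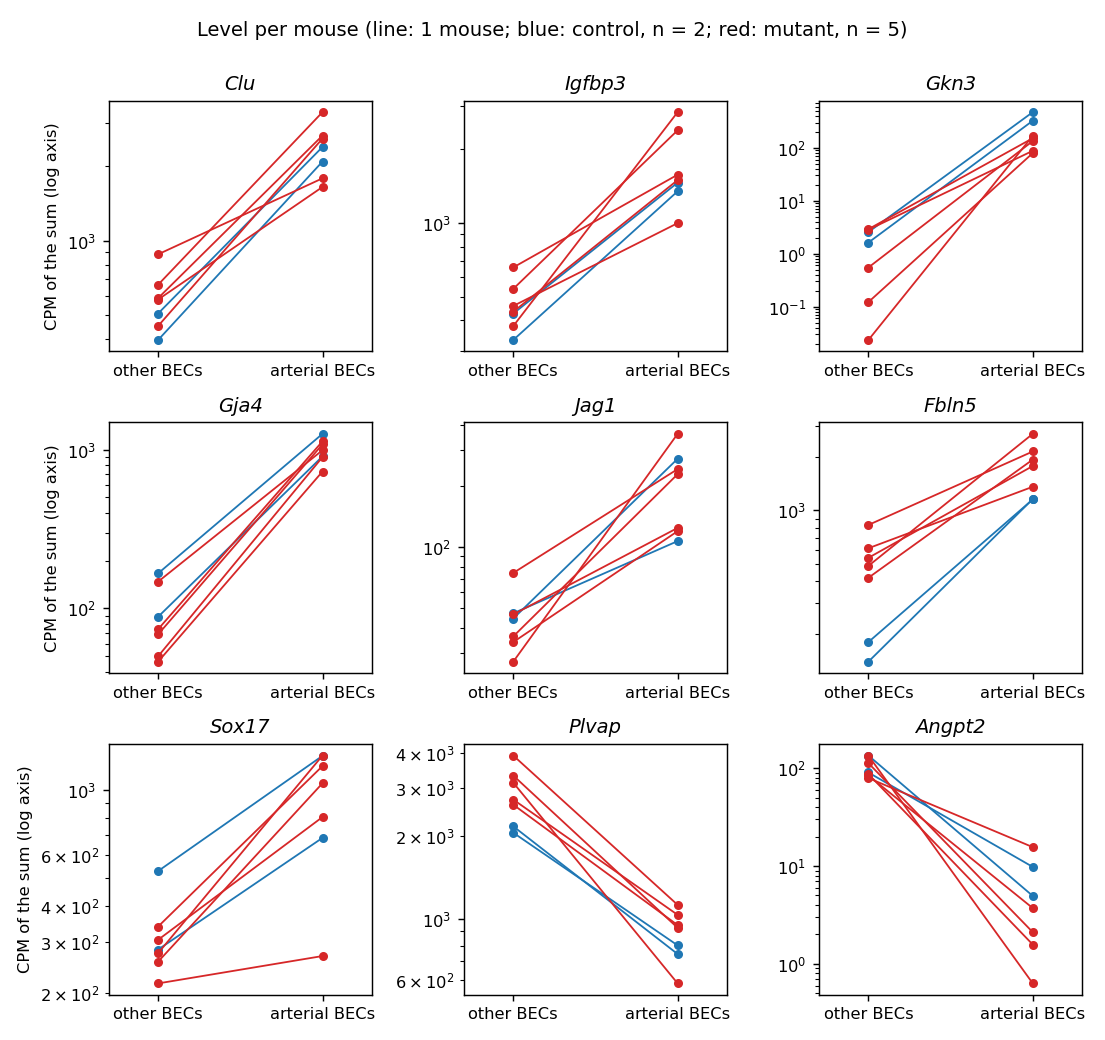
CPM of the summed reads (log axes) of 9 genes in the other BECs and the arterial BECs of each mouse, with 1 line per mouse in blue (2 controls) or red (5 mutants). The first 7 genes rose in all 7 mice from other to arterial BECs, whereas *Plvap* and *Angpt2* fell in all 7; the lowest arterial level of *Sox17*, 269 CPM, was that of mutant 2.

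The share of single cells with a read was also set beside that of the sorted LECs. After thinning each cell to 50000 reads, *Gkn3* was found in 33.0% of arterial BECs (95% Wilson interval 24.2–43.1%), in 2.93% of other BECs within the same limits and in 1.16% of LECs, whose median depths before thinning were 276045, 234808 and 334672 reads. Unthinned, these shares were 40.7, 10.6 and 5.55%. *Sox17* was found in 92.3% of arterial BECs, 73.7% of other BECs within the limits and 15.8% of LECs. *Clu* was found in 94.5, 73.1 and 69.1% and *Igfbp3* in 87.9, 64.9 and 33.0% of these cells. *Sema3g*, an arterial semaphorin, was found in 64.8, 16.1 and 1.71%. *Gja4* was found in 82.4, 51.7 and 70.7%, a larger share of LECs than of other BECs within the limits. The interval covers counting error over pooled cells only and leaves out the spread between mice. By mouse, the thinned share with *Gkn3* ran from 13.6 to 71.4% in arterial BECs and from 0 to 7.69% in other BECs within the limits. For *Gja4* these ranges overlapped, at 55.6–100% and 27.1–81.2%. Reads without molecular barcodes are also not independent molecules.

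Across all genes, 14300 were tested between arterial and other BECs. The count called was 153 higher (1.07%) and 493 lower (3.45%) in arterial BECs. The median log2 fold change over all genes was -0.60, but -0.09 over the 6506 genes with a mean log2 CPM above 5. Other BECs include cells that the rule set aside for *Apln*, venous or cell cycle genes, and these cells were a larger share of the BECs in mutant mice. Arterial BECs were therefore also set against the 547 other BECs within the same limits, which differ from them in the rule by *Gja5* alone. There, 70 genes were called higher (0.584%) and 70 lower (0.584%) of 11987, with a median of -0.38. Of the 153 and 493 genes, 60 and 60 were called in the same direction in this second comparison. When as many other BECs as arterial BECs were drawn from each mouse, 34 genes were called higher and 24 lower, and the median log2 fold change was -0.01. Without the cells that held markers of another type, and so without mutant 1, 54 genes were called higher and 68 lower. With mutant 1 alone left out, 144 were higher and 287 lower. In the former setting, among the genes named below, the calls of *Notch1*, *Dll4*, *Jag1*, *Sox18*, *Mecom*, *Prdm16*, *Erg*, *Hspg2*, *Edn1*, *Ace*, *S1pr1*, *Cav1*, *Acvrl1*, *Cd300lg*, *Lrg1*, *Nr2f2*, *Angpt2*, *Nid2*, *Lamb1*, *Vegfc*, *Tnfrsf26*, *Aif1l*, *Adamts18*, *Map3k14*, *Zfp41* and *Slc7a5* were lost.

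Several Notch pathway genes were higher. Of 18 members tested, 6 rose in arterial against all other BECs and none fell, with a median log2 fold change of 0.82 against -0.60 over all genes. *Dll4*, the NOTCH ligand of arterial endothelium (chromosome 2, 119325784–119335962), was at 648 and 1079 CPM in the arterial cells of the controls and 809, 724, 501, 399.5 and 528 CPM in those of the mutants, whereas other BECs had 332 and 372 and 141, 106, 193, 186 and 98.0 CPM (1.81 ± 0.25, adjusted p = 0.00343). Its groups did not overlap. *Jag1*, a second ligand (chromosome 2, 137081456–137116644), was at 273 and 107 CPM in control and 124, 119.9, 229, 362 and 243 CPM in mutant arterial cells and at 44.4 and 47.2 and 46.5, 34.0, 36.3, 27.2 and 74.6 CPM in other BECs (2.15 ± 0.35, adjusted p = 0.00809), also without overlap. The receptor *Notch4* rose by 1.85 and *Notch1* by 0.76 on the log2 scale (adjusted p = 0.00244 and 0.00882). *Hey1*, a transcriptional repressor induced by NOTCH, had arterial levels of 537 and 343 CPM in controls and 113, 428, 396, 619 and 598 CPM in mutants, against 125 and 124 and 62.6, 29.7, 68.6, 59.3 and 76.3 CPM (2.46 ± 0.35, adjusted p = 0.00466); only the arterial value of mutant 1 lay below the highest value of other BECs. Against other BECs within the same limits, the differences of *Dll4*, *Notch4*, *Hey1* and *Notch1* were 0.77, 0.81, 1.10 and 0.68 and none was called (adjusted p = 0.119, 0.196, 0.208 and 0.0653). *Jag1* (1.90 ± 0.35, adjusted p = 0.0313) and *Gja4* were called in both comparisons, so that 2 of 17 members were called there. Against as many other BECs as arterial BECs, only *Gja4* of 16 members was called (adjusted p = 0.0354), and *Jag1* was not (0.102). Against as many within the same limits, none of 16 was called (*Gja4* 0.108, *Jag1* 0.635). The ephrin *Efnb2* was at 179 and 93.3 and 92.2, 143, 46.1, 30.7 and 117 CPM in arterial BECs and at 50.2 and 63.6 and 29.8, 32.5, 28.8, 37.2 and 23.0 CPM in other BECs (1.29 ± 0.44, adjusted p = 0.133), and *Hey2* at 0–92.2 CPM in arterial BECs (4.26 ± 2.38, adjusted p = 0.357). Neither was called.

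Among 3 connexins tested, *Gja4*, connexin 37 (chromosome 4, 127311421–127314039), had the lowest adjusted p of the genes named here. It was at 906 and 1257 CPM in the arterial cells of controls and 991, 728, 1128, 897 and 1079 CPM in those of mutants, and at 88.5 and 166 and 147, 46.1, 73.8, 49.9 and 68.5 CPM in other BECs (3.59 ± 0.21, adjusted p = 1.12e-05; within the same limits 2.25 ± 0.23, adjusted p = 0.00229). *Gja1*, connexin 43, did not pass the test (0.04 ± 0.39, adjusted p = 0.972). Of the CXCL12 axis none of 3 genes was called. *Cxcl12*, a chemokine made by arterial endothelium, was at 3242 and 2977 CPM in arterial and 3254 and 3609 CPM in other BECs of controls, and at 4192, 1536, 3430.0, 2231 and 2494 and 1542, 1546, 1501, 1426 and 996 CPM in mutants. In 4 of 5 mutants the arterial value was above that of other BECs, and in mutant 2 and both controls it was below, with a difference of 0.62 ± 0.21 overall (adjusted p = 0.127). Within the same limits the difference had the opposite sign, -0.44 ± 0.16 (adjusted p = 0.292). Its receptor *Cxcr4* was at 0–24.8 CPM in arterial BECs.

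Of 12 transcription factors of arterial endothelium tested, *Sox18* (0.60 ± 0.12, adjusted p = 0.019), *Mecom* (1.44 ± 0.27, 0.0139) and *Prdm16* (1.72 ± 0.41, 0.0373) rose, and *Erg*, an ETS factor of all endothelial cells, fell (-2.03 ± 0.52, 0.0483). None of these calls, nor that of *Sox17*, held within the same limits, where the differences were 0.16, 1.00, 0.75, -1.79 and 0.68 (adjusted p = 0.584, 0.131, 0.431, 0.164 and 0.256). *Sox18* and *Mecom* are thus given as higher than other BECs as a whole. The call of *Sox18* was also lost without mutant 1, 2 or 5, that of *Prdm16* without control 1 or mutant 1, 3, 4 or 5, and that of *Erg* without any mouse but control 1.

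Of 14 genes of elastic fibers and the arterial wall tested, 6 rose and 2 fell against all other BECs, and within the same limits 8 rose and 3 fell of 13, with medians of 0.81 and 2.1 (all genes: -0.60 and -0.38). *Fbln5*, a fibulin needed to assemble elastic fibers (chromosome 12, 101746565–101819055), was at 1155 and 1161 CPM in control and 1363, 1944, 1787, 2721 and 2161 CPM in mutant arterial BECs and at 179 and 139 and 610.2, 415, 539, 484 and 827 CPM in other BECs, without overlap (2.11 ± 0.22, adjusted p = 0.000816; within the same limits 2.34 ± 0.26, 0.00411). *Fbln2* (1.09 ± 0.21), *Htra1*, a secreted protease (2.55 ± 0.28), and *Fn1*, fibronectin (3.60 ± 0.41), were called in both comparisons and did not overlap either (adjusted p = 0.0151, 0.000928 and 0.00106). Fibroblasts and mural cells make these genes as well: of 8 mural markers tested 5 were higher in arterial than in other BECs, with a median of 0.55 (-0.35 within the limits), and of 3 fibroblast markers 1 was, with a median of -1.61 (-2.1). Without the cells that held markers of another type, *Fbln5*, *Htra1* and *Fn1* were called and *Fbln2* was not. Against as many other BECs as arterial BECs, *Fn1* was the only one of 13 genes called, and against as many within the same limits 3 rose (*Eln*, *Mgp* and *Lox*) and 3 fell (*Col4a1*, *Col4a2* and *Hspg2*), so that *Fbln5*, *Fbln2* and *Htra1* were called in neither draw. Mural markers were higher in these draws. In the first, 5 of 6 rose with a median of 2.62, and *Acta2* was called. In the second, 3 of 3 rose with a median of 1.48 and no call. Fibroblast medians were 1.43 (2 tested) and -0.23 (3 tested), without a call. *Mgp*, an inhibitor of calcification, was called against all other BECs and within the same limits (2.32 ± 0.57 and 2.42 ± 0.43, adjusted p = 0.0422 and 0.027), but the first call was lost without any mouse but mutant 1, whose 22.9 CPM lay below the 41.7 CPM of its other BECs.

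Elastin itself depended on the cells compared. *Eln* (chromosome 5, 134702593–134747323) was at 885 and 1209 CPM in the arterial and 281 and 179 CPM in the other BECs of controls, and at 297, 2798, 1172, 1470.0 and 2044 CPM in the arterial and 1499, 1240.0, 978, 1063 and 1400.0 CPM in the other BECs of mutants. Both controls and 4 of 5 mutants had the higher value in arterial cells, and the exception was mutant 1. The difference was 0.71 ± 0.45 against all other BECs (adjusted p = 0.422) and 2.15 ± 0.40 within the same limits (adjusted p = 0.0313). *Fbn1*, fibrillin 1 of the microfibrils, was likewise called within the limits alone (0.16 ± 0.48 and 2.1 ± 0.38, adjusted p = 0.899 and 0.028), and *Lox*, which crosslinks elastin, was at 175 and 165 CPM in control and 28.5, 196, 26.3, 41.3 and 226 CPM in mutant arterial cells against 0.0703–16.8 CPM in other BECs and was called within the limits (3.84 ± 1.01 and 5.39 ± 1.08, 0.0544 and 0.0431). Basement membrane genes went the other way: *Col4a2*, a collagen IV chain, and *Hspg2*, perlecan, fell in both comparisons (-1.10 ± 0.24 and -1.40 ± 0.32 against all other BECs, adjusted p = 0.0254 and 0.0322), and *Col4a1* fell within the limits (-1.09 ± 0.18, adjusted p = 0.0208). The first calls of *Col4a2* and *Hspg2* were lost without either control or mutant 3, and that of *Hspg2* also without mutant 4 or 5.

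**Figure D2:**
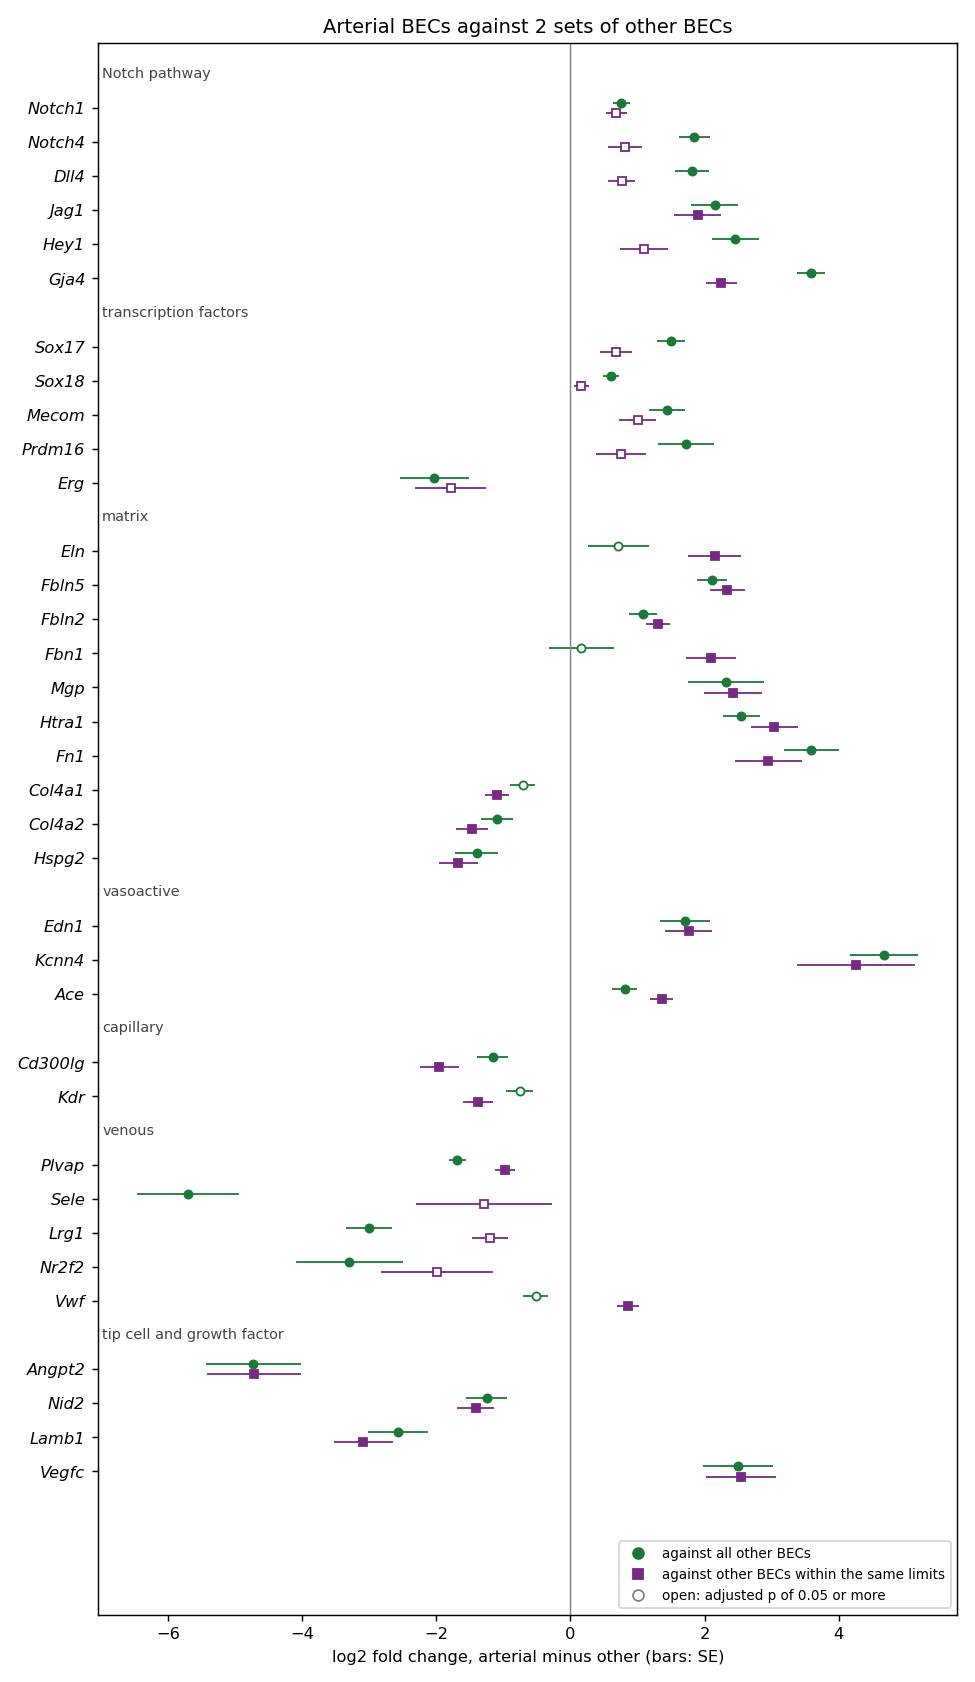
Log2 fold change of arterial BECs against all other BECs (green circles) and against other BECs within the same limits (purple squares), with SE bars from 7 mice, and filled symbols for an adjusted p under 0.05. *Eln*, at 0.71 and 2.15, and *Fbn1* were called within the limits alone, whereas the NOTCH genes *Dll4*, *Notch4* and *Hey1* shrank and *Vwf* changed sign.

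Of 12 vasoactive factors, 3 rose and none fell, in both comparisons. Against as many other BECs as arterial BECs only *Kcnn4* of 9 was called, and against as many within the same limits none of 10. *Kcnn4*, a calcium-activated potassium channel of endothelium-dependent dilation (chromosome 7, 24370263–24386690), was at 350.1 and 194 CPM in control and 289, 127, 139, 187 and 148 CPM in mutant arterial cells and at 14.1 and 6.77 and 11.5, 0.562, 11.3, 12.4 and 8.69 CPM in other BECs (4.68 ± 0.51, adjusted p = 0.000928). *Edn1*, the constrictor endothelin 1, was at 383 and 429 and 101, 410.2, 280.1, 211 and 968 CPM in arterial cells and 55.5–154 CPM in other BECs (1.71 ± 0.37, adjusted p = 0.025), and *Ace*, which makes angiotensin II, rose by 0.81 (adjusted p = 0.033). In mutant 1 both *Edn1* and *Ace* were lower in arterial than in other BECs, and the calls of both were lost without either control or mutant 2, 3 or 5. *Nos3*, the endothelial nitric oxide synthase, was at 417 and 246 CPM in control and 328, 584, 421, 335 and 271 CPM in mutant arterial cells against 415 and 294 and 309, 400.2, 334, 344 and 335 CPM, a difference of 0.05 ± 0.16 (adjusted p = 0.901). Among 12 genes of shear stress and quiescence, *S1pr1*, *Cav1* and *Acvrl1* rose (0.59 ± 0.13, 0.48 ± 0.08 and 0.96 ± 0.22) and the TGFβ coreceptor *Eng* fell (-0.87 ± 0.14, adjusted p = 0.00805). Within the same limits *S1pr1*, *Cav1* and *Acvrl1* were not called (0.08, 0.05 and 0.53, adjusted p = 0.862, 0.864 and 0.364), whereas *Eng* was (-0.65 ± 0.13, 0.0433). The first calls of *S1pr1* and *Acvrl1* were lost without control 2 or mutant 1, 2, 4 or 5. The flow-induced factors *Klf2* (0.57 ± 0.22) and *Klf4* (0.08 ± 0.54) did not pass the test (adjusted p = 0.17 and 0.964).

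Several venous genes were lower. Of 10 venous genes, *Plvap*, *Lrg1*, *Nr2f2* and *Sele* fell and none rose. *Plvap*, which forms the diaphragms of fenestrae and caveolae (chromosome 8, 71497765–71511752), was at 745 and 801 CPM in control and 1124, 582, 928, 949 and 1034 CPM in mutant arterial cells and at 2170.0 and 2057 and 3925, 3128, 3320.0, 2601 and 2715 CPM in other BECs, without overlap (-1.69 ± 0.13, adjusted p = 7.94e-05), and it fell within the limits too (-0.97 ± 0.15, 0.0132). *Sele*, the adhesion molecule E-selectin, was at 1.74 and 0.235 and 4.33, 1.26, 1.58, 1.97 and 51.7 CPM in arterial cells and at 54.5 and 37.6 and 159.5, 198, 160.5, 224 and 175 CPM in other BECs (-5.71 ± 0.76, adjusted p = 0.00318). The rule kept cells with *Ackr1* or *Selp* out of the arterial side alone, and so bears on these genes in the first comparison. Within the same limits *Sele*, *Lrg1* and *Nr2f2*, the venous regulator COUP-TFII, differed by -1.28, -1.20 and -1.99 and none was called (adjusted p = 0.657, 0.0659 and 0.348). The first call of *Nr2f2* was lost without any mouse but mutant 1. *Vwf*, von Willebrand factor, changed direction, from -0.52 ± 0.19 (adjusted p = 0.153) to 0.85 ± 0.16 (adjusted p = 0.0355).

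Of 12 capillary genes, 9 were lower in arterial than in other BECs, but their median of -0.67 lay near the -0.60 over all genes. *Cd300lg*, nepmucin, was the only one called (-1.16 ± 0.23, adjusted p = 0.0184). Within the limits all 12 were lower, with a median of -1.41 against -0.38 over all genes, and *Cd300lg* (-1.95 ± 0.29, adjusted p = 0.011) and *Kdr*, VEGF receptor 2 (-1.38 ± 0.22, 0.0162), were called. *Cd36*, a fatty acid transporter, and *Gpihbp1*, which anchors lipoprotein lipase in capillaries, were not (-0.91 ± 0.33 and -1.44 ± 0.65, adjusted p = 0.288 and 0.387). Of 10 genes of angiogenic tip cells, *Angpt2*, *Nid2* and *Lamb1* fell in both comparisons and *Dll4* rose in the first, and the first call of *Nid2* was lost without any 1 of the 7 mice. *Angpt2*, the antagonist ligand of TIE2 (chromosome 8, 18690263–18741562), was at 9.79 and 4.95 CPM in control and 3.71, 0.631, 2.11, 1.57 and 15.6 CPM in mutant arterial cells and at 90.4 and 135 and 84.3, 135, 113, 87.2 and 79.3 CPM in other BECs (-4.73 ± 0.71, adjusted p = 0.00563; within the limits -4.72 ± 0.70, 0.011). It was read in 50 of 91 arterial BECs (54.9%), by 194 reads in all, against 293 of 547 other BECs within the limits (53.6%) by 15315 reads. The level was thus low, whereas the share of cells with a read was similar without thinning. A share after thinning was not computed for *Angpt2*. *Vegfc*, the lymphatic growth factor, was higher in arterial BECs of all mice, at 347 and 427 and 121, 73.8, 185, 181 and 101 CPM against 8.40 and 29.6 and 32.3, 37.1, 36.0, 36.1 and 43.4 CPM (2.50 ± 0.52, adjusted p = 0.0214; within the limits 2.54 ± 0.52, 0.0448). Its first call was lost without control 2 or mutant 3 or 4, and that of *Cd300lg* without mutant 4. Lists of PI3K components (21 tested), FOXO-responsive genes (13), glycolysis (14), sterol and fatty acid synthesis (15) and immediate-early genes (14) held no call in either comparison, and ATF4 and amino acid genes (14) and cell cycle genes outside the rule (16) held 1 each against all other BECs, *Slc7a5* and *Cenpf*, both lower. The call of *Slc7a5* was lost without any mouse but mutant 3 and that of *Cenpf* without control 1 or any of mutants 1–4.

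Among the 134 genes called higher that had a mean of 3 or more in log2 CPM, rose in every mouse and were neither predicted, pseudogenes, *Xist* nor Y-linked, the largest differences were, after that of *Gkn3*, those of *Trpm6*, *Tox2*, *Kcnn4*, *Efna5*, *Tnfrsf26*, *Serpinf1* and *Aif1l*. *Trpm6*, a magnesium channel (chromosome 19, 18749983–18892511), was at 139 and 59.3 CPM in control and 8.04, 65.6, 52.4, 135 and 130.2 CPM in mutant arterial cells and at 0.156–2.13 CPM in other BECs (6.62 ± 0.66, adjusted p = 0.000643). *Tox2*, an HMG-box factor (chromosome 2, 163203125–163324170), was at 61.6 and 124 and 226, 578, 238, 227 and 298 CPM against 0.16–15.4 CPM (6.00 ± 0.55, adjusted p = 0.000288). *Serpinf1*, the anti-angiogenic pigment epithelium-derived factor (chromosome 11, 75409769–75422701), was at 385 and 399.9 and 259, 412, 730.5, 224 and 470.0 CPM against 47.6 and 36.0 and 21.3, 8.20, 15.8, 7.94 and 31.1 CPM (4.28 ± 0.38, adjusted p = 0.00025). For all 7 genes every arterial value lay above every value of other BECs. *Efna5*, an ephrin ligand, and *Tnfrsf26* each rose by 4.61 (adjusted p = 0.0249 and 0.00712), and *Aif1l*, an actin-binding protein, by 4.22 (0.00863). Within the limits all but *Aif1l* were called (2.75 ± 0.76, adjusted p = 0.135), and the call of *Efna5* was lost without control 2 or mutant 2, 4 or 5.

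Among the 138 genes called lower that met the same limits, the 8 with the largest fall, *Adamts18*, *Slc39a8*, *Otos*, *Qrsl1*, *Ptk2b*, *Hrh1*, *Map3k14* and *Zfp41*, had between 7 and 100 reads in the 91 arterial cells together. Their fitted log2 fold changes, from -7.37 to -6.68, therefore rest on few reads. Without thinning, the arterial cells with a read numbered 2–9 (2.2–9.89%), against 35–79 (6.4–14.4%) of the 547 other BECs within the limits. *Slc39a8* (9.89 and 7.86%) and *Hrh1* (6.59 and 6.4%) were read in a slightly larger share of arterial cells, and the others in a smaller one. *Ptk2b*, the kinase PYK2, had 8 reads in 7 arterial cells (0.297 CPM) and was at 6.62 CPM in other BECs within the limits and 49.2 CPM in those outside them. Of the 8 genes, *Qrsl1* (-6.32 ± 1.31, adjusted p = 0.0459) and *Map3k14* (-5.73 ± 1.12, adjusted p = 0.038) were called within the limits, and the other 6 did not pass the filter on low counts there. The call of *Adamts18* was lost without any 1 of the 7 mice and that of *Zfp41* without any but mutant 5.

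The cells chosen by *Gja5* were not uniform. At least 50 CPM of *Cxcl12* was found in 87 of 91 cells, of *Clu* in 79, of *Sox17* and *Eln* in 76 each, of *Gja4* in 70, of *Igfbp3* in 69, of *Hey1* in 49, of *Mgp* in 33 and of *Gkn3* in 27. Genes of capillaries were also found, with at least 50 CPM of *Cd36* in 75 and of *Gpihbp1* in 53 cells. The 2 sets of genes were unevenly shared between cells. *Gpihbp1* reached 50 CPM in 18.5% of the 27 cells with *Gkn3* and 75% of the 64 cells without, and *Cd36* in 59.3 and 92.2%, whereas *Mgp* reached it in 70.4 and 21.9% and *Eln* in 92.6 and 79.7%. The same order was seen in control cells (*Gpihbp1* 16.7 and 85%, *Mgp* 66.7 and 15%) and in mutant cells (20 and 70.5%, 73.3 and 25%). Cells with *Gkn3* were found in every mouse, between 3 of 22 in mutant 5 and 4 of 7 in mutant 2, and mutant 2 was the mouse in which only 1 of 7 arterial cells reached 50 CPM of *Cd36*. These shares describe 91 cells of 7 mice and were not tested.

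**Figure D3:**
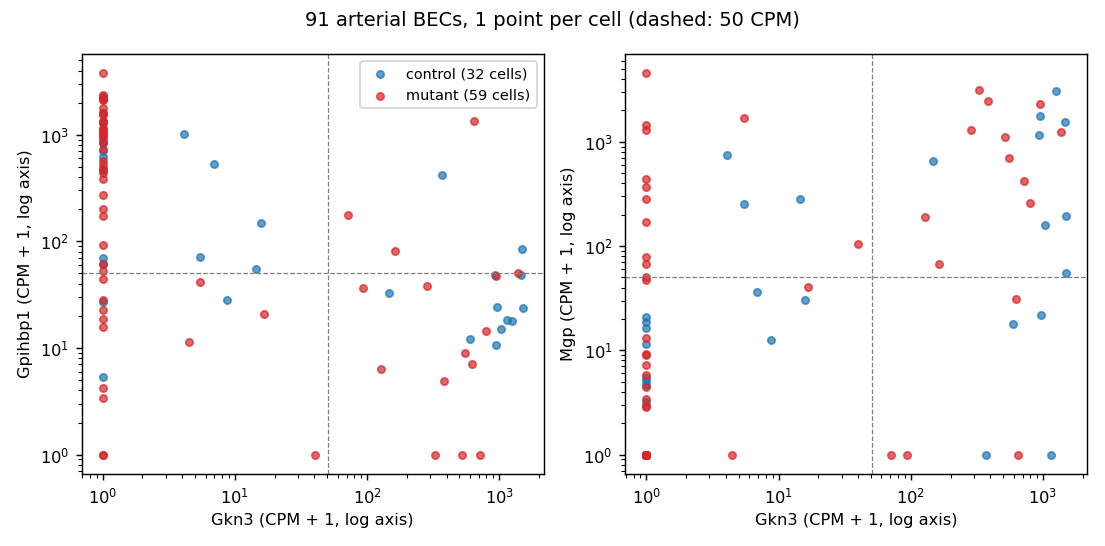
*Gpihbp1* (left) and *Mgp* (right) against *Gkn3* in each of the 91 arterial BECs, in CPM + 1 on log axes, with 32 control cells in blue, 59 mutant cells in red and dashed lines at 50 CPM. Of the 27 cells right of the vertical line, 5 lie above the line for *Gpihbp1* and 19 above that for *Mgp*.

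In the pooled cells, mean gene levels followed the level of *Gja5* beyond its threshold. In the 404 BECs within the limits that had no *Gja5* read, the 143 with up to 50 CPM, the 36 with 50–500 CPM and the 55 with 500 CPM or more, the mean level of *Gkn3* per cell was 0.655, 2.60, 78.9 and 304 CPM. Its median per cell was 0 in each bin. *Clu* was at 460, 556, 2270 and 2590 CPM and *Eln* at 294, 320, 801 and 1810 CPM in the same order. *Kdr* had 812, 759, 422 and 212 CPM and *Cd36* 3100, 3210, 1950 and 1650 CPM. *Sox17*, at 542, 591, 807 and 1090 CPM, changed least of these arterial genes from the first bin to the last. Above the threshold *Clu* changed least of them, from 2270 to 2590 CPM. *Gja4* had 215, 187, 790 and 1180 CPM and *Mgp* 65.4, 49.4, 199 and 487 CPM. As the bins are made from these cells, the order is a description.

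The share of arterial cells among BECs was 11.3% (18 of 159) and 8.92% (14 of 157) in the controls and 4.37, 3.8, 3.94, 5.17 and 7.26% in mutants 1–5. The groups did not overlap, and the means were 10.1% ± 1.70 (SD, n = 2) and 4.91% ± 1.42 (SD, n = 5), a difference of -5.21 percentage points. The exact permutation test gave a two-sided p of 0.0952, the smallest that the 21 splits of 7 mice allow, so that this design cannot pass 0.05. BECs within the limits on *Apln*, venous and cell cycle genes were 73.4% of BECs in control and 34.6% in mutant mice, since at least 50 CPM of *Apln*, a gene of tip cells and growing capillaries, was found in 13.3 and 50.2% and at least 100 CPM of *Ackr1* and *Selp*, genes of venules, in 14.9 and 47.3%. As a share of the BECs within these limits, arterial cells made up 14.8 and 12.7% in the controls and 14.3, 11.3, 12.7, 11.4 and 20.6% in the mutants, with means of 13.7% ± 1.43 (SD, n = 2) and 14.1% ± 3.83 (SD, n = 5). That difference, mutant minus control, was 0.314 percentage points (exact permutation test, two-sided p = 0.857). Without the cells that held markers of another type, the difference in the share of all BECs was -10.3 percentage points. Mutant 5, the only mutant of the controls' plate series, had 2.86 percentage points less than the mean of the controls. The sort set how many BECs a plate held, so that the shares are of sorted BECs and not of the tissue.

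**Figure D4:**
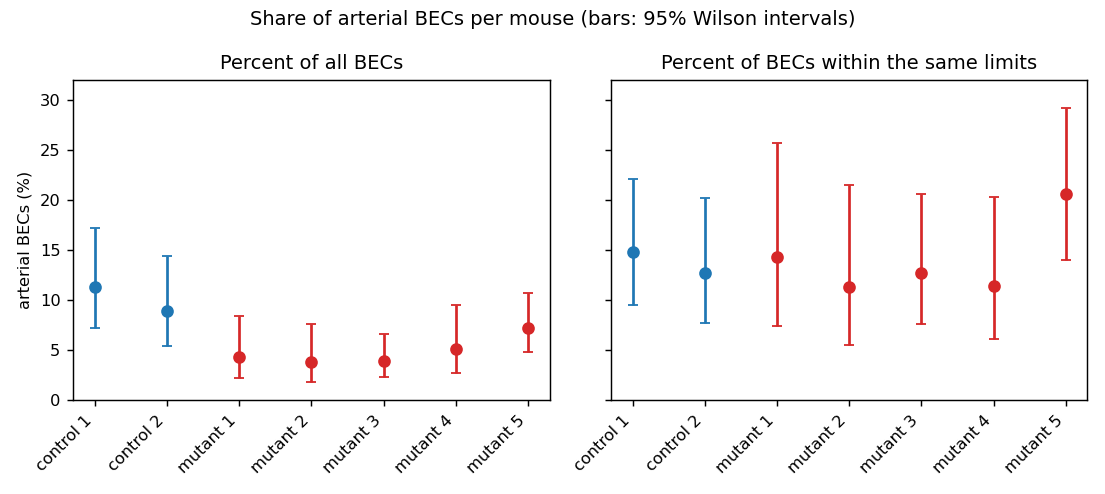
Arterial BECs of each mouse as a percent of all BECs (left) and of BECs within the same limits on *Apln*, venous and cell cycle genes (right), for 2 controls (blue) and 5 mutants (red), with 95% Wilson intervals that cover counting error only. On the left the controls lie above all mutants, at 11.3 and 8.92%, and on the right both groups lie between 11.3 and 20.6%.

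Between mutant and control mice, no gene was called in arterial BECs. Of 12087 genes tested, 0 (0%) passed, 491 had an unadjusted p under 0.05, and the lowest adjusted p was 0.998. DESeq2 called 184 higher and 19 lower in the same sums. The median SE of a gene's log2 fold change was 1.53, so that for many genes even large differences could not have been called at this depth. The 0 calls therefore do not show that arterial BECs were unchanged. In other BECs, with many more cells per mouse (median SE 0.518), 322 genes were higher (1.69%) and 122 lower (0.641%) of 19018, but within the same limits there as well 0 were higher and 1 was lower of 16639. With the plate series as a term 61 genes were called in other BECs and 0 in arterial BECs. Mutant 5 is the only mutant of the controls' series, and 1 mouse against 2 leaves too little to test by gene. For the difference between the 2 effects, 0 of 18553 genes were called (0%), 698 had an unadjusted p under 0.05, and the lowest adjusted p was 0.146, whereas DESeq2 called 235. No effect of the mutation was thus shown to differ between arterial and other BECs.

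In arterial BECs the mutant-control difference was 0.09 ± 0.28 for *Clu*, 0.40 ± 0.35 for *Igfbp3*, -0.16 ± 0.28 for *Gja4*, -0.04 ± 0.54 for *Hey1* and -0.11 ± 0.50 for *Sox17* (log2 fold change and SE, all with an adjusted p of 0.998). *Gkn3* was lower in all 5 mutants than in both controls, at 87.9, 168, 152, 79.5 and 134 against 325 and 472 CPM (-1.68 ± 0.46, adjusted p = 0.998), and so was *Vegfc*, at 121, 73.8, 185, 181 and 101 against 347 and 427 CPM (-1.54 ± 0.48, adjusted p = 0.998). Neither was called. *Vegfc* went the other way in other BECs, at 32.3, 37.1, 36.0, 36.1 and 43.4 CPM in mutants against 8.40 and 29.6 CPM in controls (0.99 ± 0.44, adjusted p = 0.254). The difference of the 2 effects was -2.87 ± 0.75 and not called (adjusted p = 1.00).

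The elastic matrix genes that were higher in mutant than in control other BECs were *Eln* (2.46 ± 0.25, adjusted p = 0.00454), *Fbn1* (2.33 ± 0.23, 0.0042), *Fbln5* (1.89 ± 0.29, 0.0168) and *Fbln2* (1.33 ± 0.26, 0.0411). In arterial BECs the same genes differed by 0.56 ± 0.59, -0.01 ± 0.68, 0.78 ± 0.27 and 0.26 ± 0.22, and none was called. The differences between the 2 effects, -2.13 ± 0.73, -2.77 ± 0.60, -1.11 ± 0.34 and -1.16 ± 0.30, were all negative and none was called (adjusted p of 1.00 for each). These differences were taken with all other BECs. Within the same limits no gene was called higher in the other BECs of mutants, the matrix genes above and the glycolysis genes below included. *Cxcl12* and *Gja1* fell in other BECs (-1.26 ± 0.17 and -1.31 ± 0.14, adjusted p = 0.0116 and 0.00503) and were at -0.16 ± 0.33 and -0.62 ± 0.77 in arterial BECs. Of 15 glycolysis genes 7 rose in other BECs, with a median of 0.87 over the list and 0.01 over all genes, and in arterial BECs 10 of 14 were higher in mutants, with a median of 0.66 against 0.05 and no call. Among these, *Pkm*, pyruvate kinase, was at 566 and 456 CPM in the arterial cells of controls and 563, 1306, 1056, 1050.0 and 1025 CPM in those of mutants, and *Ldha*, lactate dehydrogenase A, at 545 and 681 and 789, 697, 903, 1109 and 1056 CPM, where the groups did not overlap (0.96 ± 0.35 and 0.57 ± 0.30, adjusted p = 0.998 for both). All 3 fibroblast markers tested were lower in the arterial cells of mutants, with a median of -6.49, and 7 of 8 mural and 4 of 5 keratinocyte markers were higher, with medians of 1.95 and 1.21. These directions rest on single mice. Summed keratinocyte markers were at 225 and 52.6 CPM in controls and 78.1, 3.04, 1240, 36.1 and 77.9 CPM in mutants 1–5. Mural markers were at 334 and 212 and 3760, 566, 1330, 131 and 701 CPM. Fibroblast markers were at 2130 and 26.5 and 227, 0, 18.2, 1.73 and 47.8 CPM. In other BECs all 6 fibroblast and all 9 mural markers were lower in mutants, with medians of -4.4 and -1.94. Without the cells that held markers of another type, 0 genes were called between genotypes in arterial BECs, where mutant 1 had no sum, and 645 in other BECs. No member of any list was called between the arterial cells of the 2 genotypes.

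**Figure D5:**
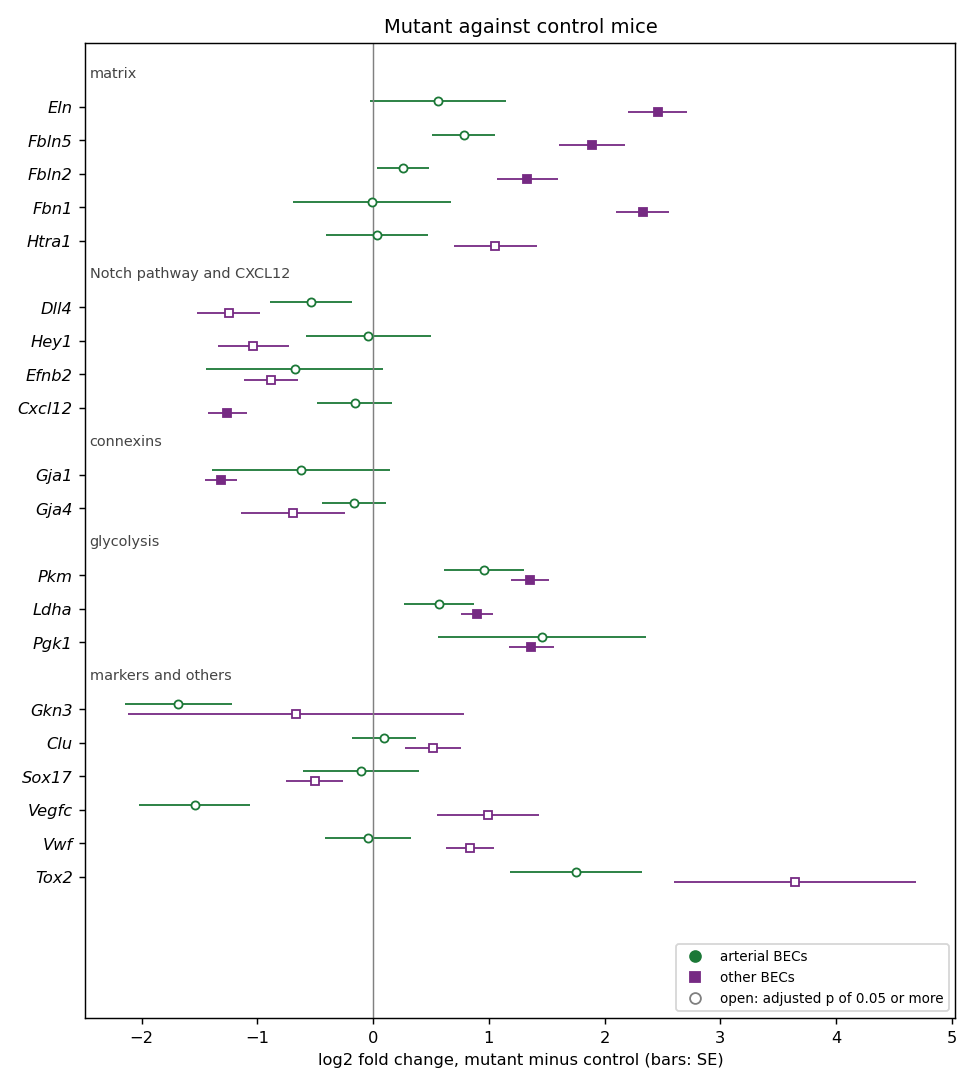
Log2 fold change of mutant against control mice in arterial BECs (green circles) and other BECs (purple squares), with SE bars (5 and 2 mice) and filled symbols for an adjusted p under 0.05. All arterial symbols are open; *Eln* was at 0.56 in arterial and 2.46 in other BECs, and the arterial bars are longer for most genes.

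Among the 8 genes with the largest rise in other BECs of mutants, *Esr1*, the estrogen receptor α, also separated the genotypes in arterial BECs. It had 0 reads in all 32 arterial cells of the controls, of 9378008 reads, and 313 reads in 42 of the 59 arterial cells of mutants, where it was at 26.6, 20.2, 24.7, 15.7 and 14.9 CPM in mutants 1–5. Set against a floor of 3 reads over both controls (0.32 CPM), its 17.9 CPM over all mutant arterial cells was at least 55.8-fold higher. In other BECs, 12 of 284 control cells and 715 of 1115 mutant cells had a read (6.95 ± 0.63, adjusted p = 0.0042). In arterial BECs it was not called (adjusted p = 0.998). CreERT2 contains a part of the human estrogen receptor α, and whether its reads were counted as *Esr1* was not tested. The endogenous *Pik3ca* was at 1.52 and 29.9 CPM in the arterial cells of controls and 59.4, 0, 122, 48.4 and 16.9 CPM in those of mutants (1.67 ± 1.91, adjusted p = 0.998). The tables hold no count of the transgene, so that the number of arterial cells that expressed it is not known.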

How the data were processed

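Single cells of mouse ear skin, sorted with antibodies against Podoplanin and CD31, were sequenced by Smart-Seq2 in 384-well plates. Per the labels and the study's methods, the authors aligned reads to GRCm38 with TopHat2 2.1.1, removed duplicates with SAMtools 0.1.18 and counted reads per gene with featureCounts (Subread), so that the deposited values are raw counts without molecular barcodes. The annotation version is not given in the sources used here. Symbols and positions came from GENCODE vM21 (46005 of 46517 Ensembl identifiers matched). Plates of the same mouse were combined. The 9 plates held 99738886–151102969 reads each.

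Counts of the cells of a class were summed per mouse (at least 5 cells) and tested with edgeR 4.0.16 (R 4.3.3): TMM, filterByExpr and the quasi-likelihood test with Benjamini-Hochberg adjustment over all genes. SEs are the log2 fold change divided by the root of F. Arterial cells were compared with other BECs with mouse as a block, since both sums come from the same animal, and mutants with controls without one. The 17 genes of the rule were left out. DESeq2 1.42.0 and other settings served as alternatives, and the scripts were tested on simulated data. Shares were compared by the exact permutation test over mice, with Wilson intervals (scipy 1.17.1).

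The cells and gene lists were chosen with earlier results of these data known. Named were the 4 markers, members of lists, and the 8 called genes per direction with the largest difference, a mean of 3 or more in log2 CPM, and the same direction in every mouse (without overlap between genotypes), leaving out predicted genes, pseudogenes, *Xist* and Y-linked genes. Doublets were not called.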

Additional observations from a re-analysis of the deposited data

Results flagged for a closer look

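In 80 groups of 5 mutant values, 13 had 1 mouse far from the others by Dixon's test at the 95% level, and chance alone would mark about 1 in 20 groups. Mutant 5 stood high in arterial BECs for *Sele* (51.7 CPM), *Lrg1* (396 CPM), *Angpt2* (15.6 CPM), *Adamts18* (14.3 CPM), *Qrsl1* (0.572 CPM) and *Zfp41* (10.6 CPM). Mutant 3 stood high for *Fbn1* (1040.0 CPM), *Esm1* (24.0 CPM) and *Slc7a5* (1.58 CPM), and mutant 2 for *Erg* (56.2 CPM) and *Tox2* (577 CPM). *Nr2f2* was high in mutant 1 (101 CPM) and *Ackr3*, a scavenger receptor of CXCL12, in mutant 4 (554 CPM).

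*Vwf* was marked because the difference between arterial and other BECs went one way in both controls and the opposite way in all 5 mutants. The test of the difference of the 2 effects gave -0.904 on the log2 scale and did not call it (edgeR, adjusted p = 1.00).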

How the results depend on the processing

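Of the 646 genes called between arterial and other BECs, the count became 3372 with DESeq2, 43 in control mice only, 89 in mutant mice only, 290 after thinning cells to 50000 reads, 122 without cells that held markers of another type (and so without mutant 1), 140 within the same limits, and, in draws chosen after seeing the data, 58 against as many other BECs and 31 against as many within the same limits. Leaving out 1 mouse gave 342 (without mutant 4) to 523 (without control 1). For mutants against controls the count in arterial BECs was 0, but 203 with DESeq2 and 17 without the filter on low counts, and 0 to 1 with 1 mouse left out. In other BECs the 444 calls became 2289 with DESeq2, 61 with the plate series as a term, 1 within the same limits and 0 for mutant 5 against both controls, where 1 mouse against 2 could hardly give a call, and 170 (without mutant 3) to 640 (without mutant 5) with 1 mouse left out. The difference of the effects had 0 calls, but 235 with DESeq2, 1 without the filter and 1 after thinning. The difference in share was -2.86 percentage points for mutant 5 alone, 0.314 within the same limits, -10.3 without cells holding other markers (29 BECs left in control 1), and -6.41 to -4.01 with 1 mouse left out. Signs turned for *Sox18* (-0.05), *S1pr1* (-0.28) and *Cav1* (-0.19) against as many BECs within the limits and for *Vwf* (0.85) within the limits, and, among genes called in neither comparison, *Cxcl12* (0.62 and -0.44), *Cxcr4*, *Gja1*, *Nos3*, *Klf2*, *Klf4*, *Cd36*, *Pkm* and *Ldha* had opposite signs against all other BECs and within the limits. The cause was not tested. For 55 called genes, 837 of 1172 settings kept the call. In arterial BECs the median SE between genotypes was 1.53, against 0.518 in other BECs.

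The replicate numbers of mutants and controls are shared for only 2 numbers, and the correlations of their deviations were 0.0173 and 0.0283 in arterial and -0.0148 and 0.145 in other BECs, so that they do not pair the mice. With the replicate number as a replicate block, 8 genes were called between genotypes in arterial BECs and 0 in other BECs.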
